A study of Mus musculus with 17 samples.

Results

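The genes described here are 10 genes known from the endothelium of the blood-brain barrier (Flt1, Cldn5, Slc2a1, Abcb1a, Mfsd2a, Slco1a4, Mecom, Ptprb, Adgrl4 and Bsg), chosen by name from the 26131 genes of a single-nucleus RNA count table of mouse brain. All 10 were in the table. Their levels were followed in the 1226 nuclei (of 284074) that the authors labelled Vascular cells, in the 266 of those nuclei with 1 or more molecules of Flt1, and in the other 6 labels. The labels were made from the RNA of the same nuclei, so a higher level under the Vascular label is a description and was not tested.

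Nuclei came from the posterior brain of 17 female mice, 2.3 months old and homozygous for a human transferrin receptor knock-in (hTfR KI HOM), a change that the saline controls also carried. The mice received 4 weekly intravenous doses over 24 days, with harvest 72 h after dose 4. The groups were saline (n = 4), Malat1 ASO, a free antisense oligonucleotide against the nuclear RNA Malat1, at 2 mg per kg (n = 4), anti-TfR:Malat1, the oligonucleotide coupled to an antibody against the transferrin receptor and also labelled TfR-Malat1, at 50 mg per kg (n = 6), and OTV:Malat1, the oligonucleotide on a transferrin receptor-binding transport vehicle, at 50 mg per kg (n = 3). The study asked how the carriers compare in lowering their target. What is asked here is where the barrier genes were read and whether their levels differed between treatments in the vessel nuclei, whose transferrin receptor faces the blood.

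Endothelial cells of brain capillaries form a barrier by sealing the gaps between cells with tight junctions, by keeping vesicle traffic low, and by carrying nutrients in and drugs out through membrane transporters. Cldn5 encodes claudin-5, the main sealing protein of the junctions, and Mfsd2a a lipid transporter that keeps vesicle traffic low. Slc2a1 encodes the glucose transporter GLUT1, Slco1a4 an organic anion transporter, Abcb1a the drug efflux pump P-glycoprotein, and Bsg basigin, a partner protein of lactate transporters. Flt1 is a receptor for VEGF, Ptprb a phosphatase that restrains the receptor Tie2, Adgrl4 an adhesion receptor of vessel cells, and Mecom a transcription factor.

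The sequence just before the start of a gene holds part of what sets where it is read. RefSeq (GRCm38.p6) gave 9 such windows of 250 bases for 8 of the 10 genes (all but Ptprb and Bsg), Mecom having 2. Those of 3 genes, cut to the last 150 bases before the start, are shown as those of a junction gene, an efflux pump and a receptor whose base composition differed. Capitals mark matches to the motifs searched on both strands.

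Cldn5 (chr16:18776697-18776846, + strand): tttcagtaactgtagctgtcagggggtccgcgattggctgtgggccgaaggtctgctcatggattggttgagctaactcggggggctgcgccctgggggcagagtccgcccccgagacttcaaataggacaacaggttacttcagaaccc
Abcb1a (chr5:8566941-8567090, + strand): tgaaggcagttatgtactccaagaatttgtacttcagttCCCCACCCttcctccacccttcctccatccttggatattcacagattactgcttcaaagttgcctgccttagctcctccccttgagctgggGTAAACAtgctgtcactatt
Adgrl4 (chr3:151437732-151437881, + strand): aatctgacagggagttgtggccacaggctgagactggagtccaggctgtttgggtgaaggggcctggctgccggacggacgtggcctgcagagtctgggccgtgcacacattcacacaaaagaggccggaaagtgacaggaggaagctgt

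GENCODE M21 places no exon over these windows, and the Abcb1a window lies inside Rundc3b, a gene on the other strand. Over the whole 250 bases, Cldn5 had 59.6% G or C and 12 CpG pairs, Adgrl4 56.8% and 5, and Abcb1a 40.4% and 0. The median of all 32851 windows was 52.4% and 6 CpG pairs. Among the others, Flt1 had the highest G and C content (70.4%, 23 CpG pairs) and Slco1a4 the lowest (39.2%, 0 CpG pairs). Of 5 motifs typical of factors active in vessel cells or of core promoters, the ETS core CCGGAAG was in 0 of the 9 windows (6.91% of all windows), the FOX core TGTTTAC in 1, Abcb1a (3.17% of all), and the SOX core ACAATGG in 0 (3.02%). The KLF core CCCCACCC was in 2, Abcb1a and Flt1 (9.05%), and TATAAA in 1, Flt1 (12.4%). In Abcb1a the KLF match lay 111 to 104 bases before the start, and the FOX match, on the opposite strand and so read as GTAAACA, 20 to 14 bases before it. A match is a description of the letters only, and none of the 5 motifs was in more than 2 of the 9 windows.

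The libraries held 55393588 to 79866411 unique molecular identifiers (UMIs, counted RNA molecules) per animal, but the Vascular cells only 43368 to 171058 and the Flt1-positive ones 4683 to 36784. Vascular cells were 0.432% of the nuclei and 0.148% of the UMIs, with 42 to 119 nuclei per animal, of which 5 to 25 were Flt1-positive. The label was not endothelium alone. Of 15 endothelial, 12 mural and 12 fibroblast marker genes, none of which was at 0 UMIs, the summed levels in Vascular cells were 4503, 4711 and 5065 CPM (UMIs scaled to equal totals, counts per 1000000). In Flt1-positive nuclei the sums were 17500, 6209 and 958 CPM, and in Flt1-negative ones 261, 4222 and 6405 CPM. Flt1, which made the split, is 1 of the 15, and the other 14 endothelial markers summed to 13380 CPM with it and 261 CPM without. Those 14 include Cldn5, Slco1a4, Adgrl4, Ptprb and Mecom, so the sum is not separate from the members described here. The 6 perivascular macrophage markers summed to 14.1 CPM in Vascular cells. Barcode sequences found in more than 1 library numbered 10044 of 273792, and 82 Vascular cells had such a barcode. The authors' doublet calls marked 5.71% of Vascular cells against 16.8% of all nuclei.

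The receptors had their highest pooled level under the Vascular label. Flt1 stood at 1013 CPM there, with 1057 ± 584 CPM per animal (SD, n = 17). It stood at 125 CPM in the label Glia, 5.39 in Microglia, 2.99 in Astrocytes, 0.684 in Neurons and 0.621 in Oligodendrocytes, and at 0 in Perivascular macrophages. Vascular cells held the highest Flt1 level of the 7 labels in 17 of 17 animals. Adgrl4 stood at 419 CPM in Vascular cells and at most at 4.16 CPM elsewhere (Glia). Ptprb stood at 233 CPM, against 3.69 CPM in Neurons and 3.66 CPM in Oligodendrocytes. Since Neurons were so numerous, only 8.70% of all Ptprb UMIs lay in Vascular cells, against 67.1% for Adgrl4 and 65.5% for Flt1.

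Of the junction and vesicle genes, Cldn5 stood at 276 CPM in Vascular cells and at 1.32 CPM or lower in every other label. It was listed with 0 UMIs in Glia, which with 225 nuclei allows a share of nuclei with a UMI of up to 1.63% (exact binomial, counting error only). Mfsd2a was the member least tied to the label. Its level was 32.5 CPM in Vascular cells (36.0 ± 27.5 CPM per animal, SD, n = 17) and 22.7 CPM in Astrocytes, with Vascular cells higher in 12 of 17 animals. Those counts rest on 53 Mfsd2a UMIs in Vascular cells, which were 2.40% of its UMIs.

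Among the transporters, Slco1a4 stood at 769 CPM in Vascular cells, 95.7 CPM in Glia and at most 0.770 CPM in the other 5 labels, and 78.0% of its UMIs lay in Vascular cells, the highest share of the 10. Abcb1a stood at 233 CPM, against 0.825 CPM in Astrocytes, its next label. Slc2a1 was spread more widely, at 262 CPM in Vascular cells, 37.5 in Glia, 37.1 in Astrocytes, 31.7 in Oligodendrocytes and 8.31 in Neurons. Glia, Astrocytes and Oligodendrocytes lie too close together to be ordered, as the animals of Glia ranged from 0 to 91.0 CPM. Bsg was read in every label, from 55.3 CPM in Neurons to 194 CPM in Glia, against 1438 CPM in Vascular cells. Slc2a1 and Bsg had 3.43% and 3.27% of their UMIs in Vascular cells.

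Mecom, the transcription factor, stood at 367 CPM in Vascular cells and 191 CPM in Glia, with Vascular cells higher in 11 of 17 animals. The animals of Glia ranged from 0 to 952 CPM, so no order of those 2 labels was read. The label Glia had only 225 nuclei, 1 to 53 per animal. In it Mecom and Slco1a4 were found in the same nuclei (21 nuclei with both, of 39 and 29), whereas 0 nuclei had Flt1 with either. Of the 39 Mecom-positive nuclei 35 also had Ttr, a choroid plexus gene, as did 29 of the 29 Slco1a4-positive ones, and 3 of the 32 with Flt1.

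**Figure D1:**
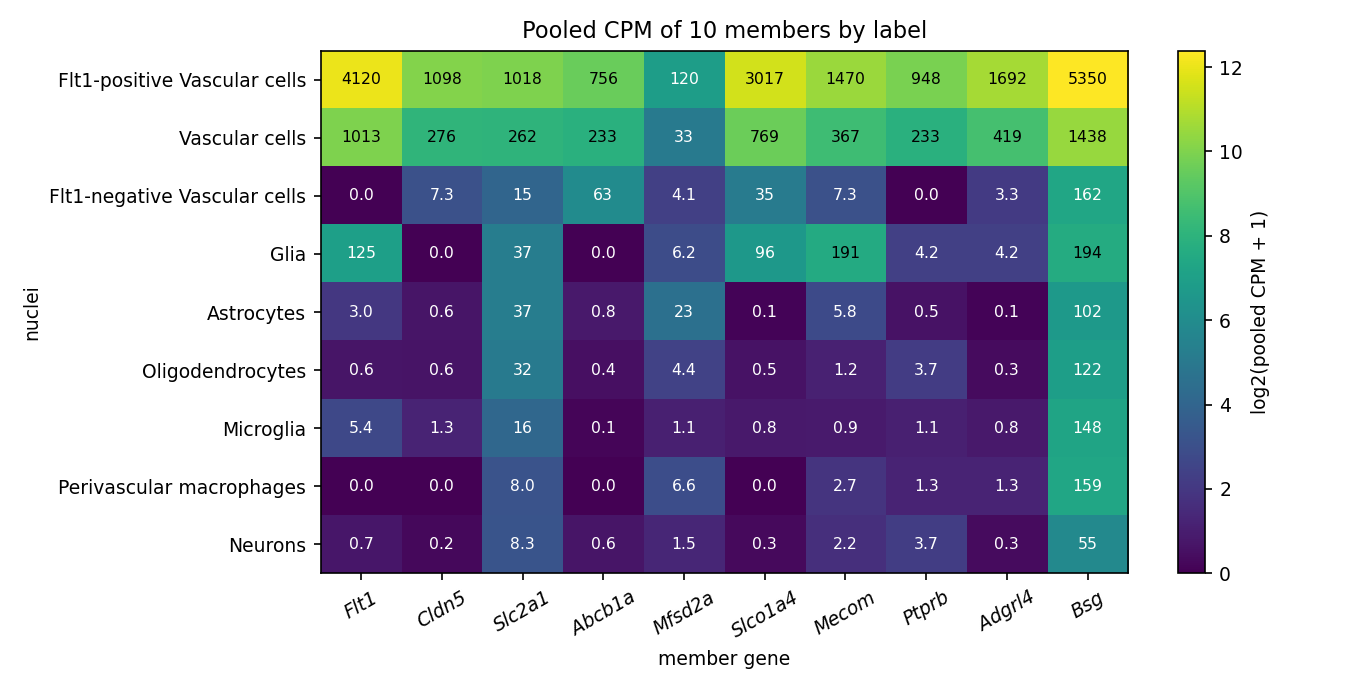
Pooled CPM of the 10 genes (columns) in each label and in Vascular cells split by Flt1 (rows), with colour on a log scale and the value in each cell. Vascular cells are the highest of the 7 labels for all 10 genes, and Mfsd2a (32.5 against 22.7 CPM in Astrocytes) and Mecom (367 against 191 CPM in Glia) differ least from the next label.

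The share of nuclei with at least 1 UMI put Vascular cells above the other labels compared here once depth was made equal. Flt1 was found in 21.7% of Vascular cells (exact 95% binomial interval 19.4% to 24.1%, counting error only), against 0.246% of Neurons and 0.0744% of Oligodendrocytes. Median depth differed, at 1100 UMIs per nucleus in Vascular cells, 4614 in Neurons and 1279 in Oligodendrocytes. After each nucleus was thinned to 500 UMIs the Flt1 shares were 18.0%, 0.0388% and 0.0266%. Bsg was in 27.3% of Vascular cells and 23.5% of Neurons before thinning, and in 18.4% and 3.38% after it. For 3 members thinning turned the order against another label. Bsg went from 27.3% of Vascular cells and 28.4% of Glia to 18.4% and 9.33%, Mecom from 12.8% and 17.3% to 8.16% and 5.78%. Mfsd2a went from 3.51% of Vascular cells and 4.12% of Astrocytes to 1.47% and 1.17%, and no order was read from the shares of Mecom and Mfsd2a.

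Most Vascular cells held none of these genes, and those that held any fell into a larger set with a single member and a smaller set with 4 or more. At 0 members stood 729 of the 1226 nuclei, 259 had 1, 43 had 2 and 4 had 3, while 191 (15.6%) had 4 or more and 15 had all 10. The count of nuclei thus has a dip at 3 and a second rise to 50 nuclei at 9 members. Given Cldn5, another member was found in a median of 80.0% of nuclei, and given Ptprb in 81.0%, Adgrl4 79.2%, Mecom 75.8%, Mfsd2a 74.4%, Slc2a1 71.2%, Abcb1a and Slco1a4 64.1%, Flt1 55.3% and Bsg 41.2%.

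How many molecules of Flt1 a nucleus had separated these cases. With 2 or more UMIs of Flt1, 184 of 205 nuclei (89.8%) had 4 or more members, with 1 UMI 5 of 61 (8.20%), and with 0 UMIs 2 of 960 (0.208%). Flt1 is itself 1 of the 10, and the median depths were alike at 1137, 965 and 1103.5 UMIs. The single-UMI nuclei had mural markers at a summed 10900 CPM, against 5254 CPM with 2 or more UMIs. The 14 endothelial markers other than Flt1, which include other members, summed to 1283 and 15850 CPM in the same order. Abcb1a was at 0 UMIs in them and Cldn5 at 73.8 CPM, against 1307 CPM with 2 or more UMIs of Flt1. Of the 12 mural markers 8 were higher in the single-UMI nuclei, such as the pericyte receptor Pdgfrb (1224 against 216 CPM), 2 were lower, Rgs5 (634 against 937 CPM) and Higd1b (59.0 against 66.1 CPM), and 2 were at 0 UMIs in both. A rule of 1 UMI of Flt1 therefore took in 61 nuclei that mostly lacked the other 9 genes.

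**Figure D2:**
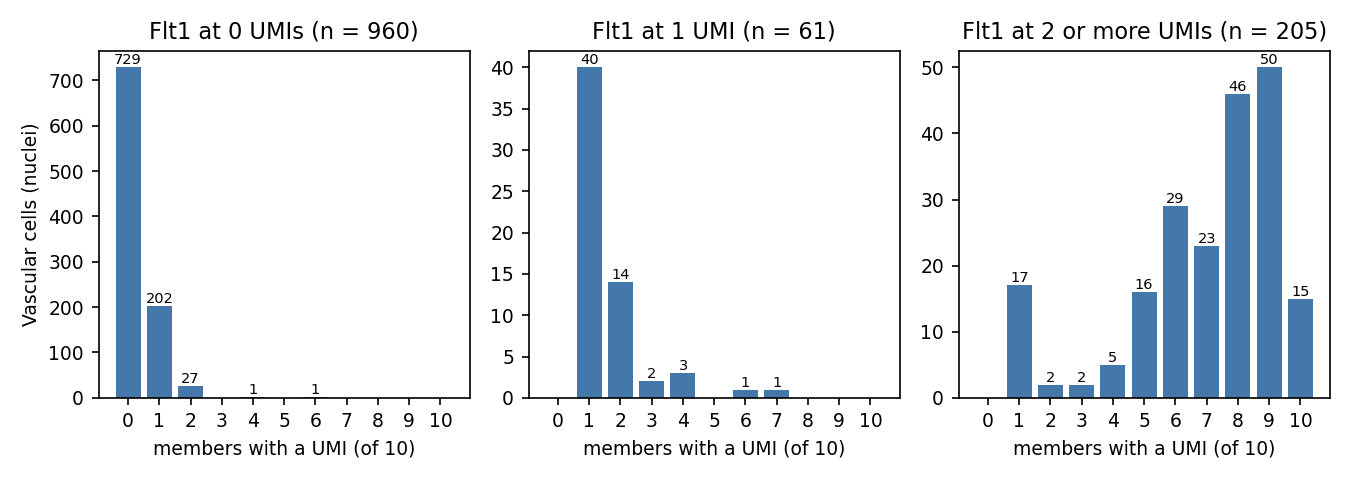
Number of Vascular cells (vertical axis) by how many of the 10 genes had a UMI (horizontal axis), for all 1226 nuclei and split by 0, 1 or 2 or more UMIs of Flt1. Nuclei with 2 or more UMIs of Flt1 (n = 205) have a median of 8 members, the other nuclei of 0 or 1.

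In the Flt1-positive nuclei the other 9 genes made up nearly all that Vascular cells had of them. The share of Vascular UMIs in these nuclei was 100% for Ptprb, 99.4% for Adgrl4, 98.5% for Mecom, 98.0% for Cldn5, 96.6% for Slco1a4, 95.6% for Slc2a1, 91.5% for Bsg, 90.6% for Mfsd2a and 79.7% for Abcb1a. Adgrl4 stood at 1692 CPM in Flt1-positive and 3.26 CPM in Flt1-negative nuclei, a ratio of 520 (95% counting interval 202 to 1912, on 4 UMIs in the Flt1-negative nuclei). Ptprb stood at 948 CPM and 0 UMIs, at least 388-fold higher when 3 UMIs over the Flt1-negative nuclei are taken as the floor. Among 3820 genes with 100 or more UMIs, non-members with high ratios were Cyyr1 (397, 109 to 3295), Prom1 (374, 65.9 to 14890) and Pecam1, a junction protein of vessels (287, 78.2 to 2384). These ratios rest on 2, 1 and 2 UMIs in the Flt1-negative nuclei, fewer than the 3 UMIs of that floor.

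Abcb1a and Bsg differed from that pattern. Abcb1a stood at 756 CPM in Flt1-positive nuclei and still at 62.7 CPM without Flt1, a ratio of 12.1, although other labels had 0.825 CPM at most. Bsg stood at 5350 and 162 CPM, and 162 CPM lies within the range of the other labels. Ratios for Cldn5, Slco1a4 and Slc2a1 were 150, 86.2 and 65.8. Malat1, the targeted RNA, went the other way in the saline animals, at 82960 ± 13510 CPM with Flt1 and 110200 ± 12630 CPM without (SD, n = 4, not tested). Pooled over all 17 animals, treated ones included, it stood at 111800 CPM in the nuclei with 1 UMI of Flt1 and 55310 CPM in those with 2 or more.

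Outside the label, nuclei with several members were rare. With Slc2a1, Mfsd2a and Bsg left out because other cells read them, 182 of 1226 Vascular cells and 47 of 282848 other nuclei had 4 or more of the 7 remaining genes. Of those 47, Neurons held 40, Oligodendrocytes 4, Microglia 2, Astrocytes 1, and Glia and Perivascular macrophages 0. The authors' doublet calls marked 17 of the 47 and 16 of the 182. By group they were 9 of 64874 such nuclei in saline, 9 of 65272 for Malat1 ASO, 13 of 52099 for OTV:Malat1 and 16 of 100603 for anti-TfR:Malat1, not tested.

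The genes whose levels followed the summed 10 genes most closely were sought over 33 points (label by cluster groups of 50 or more nuclei, Vascular cells split by Flt1), among 3821 genes with 100 or more UMIs in Vascular cells. The 5 closest non-members, by Pearson r of log2(CPM + 1), were Hba-a1 (0.92), Myl6 (0.91), Ly6a (0.90), Polk (0.89) and Vim (0.88). Points share libraries and depth, so no p is given. The members themselves ranged from 0.97 for Bsg, which adds most to the sum, to 0.58 for Ptprb, and Mfsd2a fell below the UMI minimum. Hba-a1 is a globin gene of red blood cells. The 4 globin genes summed to 2026 CPM in Flt1-positive and 21.2 CPM in Flt1-negative nuclei, but they came from few animals, with 0 to 6062 CPM in saline (median 113), 0 in all Malat1 ASO animals, 0 to 5254 CPM in anti-TfR:Malat1 and 0 to 13060 CPM in OTV:Malat1 (medians 0 and 0). Their part in the ranking was not tested.

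Between animals the members varied widely. In Vascular cells the highest animal exceeded the lowest 8.13-fold for Flt1, 7.81-fold for Abcb1a, 11.8-fold for Slco1a4, 22.5-fold for Bsg and 26.9-fold for Cldn5. The animals of batch 1 in the authors' metadata (1 saline, 1 Malat1 ASO, 1 anti-TfR:Malat1) had the lowest mean of the 4 batches for 10 of 10 members. Cldn5 averaged 65.0 CPM in batch 1, and 366, 379 and 308 CPM in batches 2 to 4. What a batch shares was not stated in the sources used here. Because batch 1 has no OTV:Malat1 animal, the main comparisons with that group are also given without batch 1 or within batches.

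Treatments were compared on UMIs summed per animal over Vascular cells, in 1 fit of all 17 animals (edgeR quasi-likelihood test, Benjamini-Hochberg adjustment over all genes tested, threshold 0.05). In such sums, fewer endothelial nuclei and less RNA per nucleus cannot be told apart. The filter on low counts left 3312 genes, with 9 of the 10 members, and Mfsd2a fell below it. No gene and no member passed the threshold in any comparison (each treatment with saline, and the carriers with each other, 0 of 3312 genes, 0% called in each). At an unadjusted p under 0.05 stood 142 genes for Malat1 ASO against saline, 79 for anti-TfR:Malat1, 171 for OTV:Malat1 and 143 for OTV:Malat1 against anti-TfR:Malat1. DESeq2 on the same sums called 0 genes in each comparison, members included. All 3 comparisons with saline rest on the 4 saline animals.

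The Malat1 ASO group had the lowest levels of most members. Its 9 tested members were all below saline, with a median log2 change of -0.94, against 0.000857 over all 3312 genes, and 3 of the 9 were at an unadjusted p under 0.05 (4.29% of all genes were). None passed the adjusted threshold (adjusted p = 0.999, edgeR). Since all sums come from the same nuclei of the same animals, the 9 values are not independent.

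Ptprb, the phosphatase that acts on Tie2, stood at 181, 228, 310 and 451 CPM in the saline animals and at 57.5, 44.1, 192 and 218 CPM in the Malat1 ASO animals. The groups overlapped, with 2 of 4 Malat1 ASO animals below every saline animal. Those 2 values rest on few Ptprb UMIs, as the sums of these animals held 121645 and 68055 UMIs over all genes. The log2 change was -1.21 (SE 0.48, 95% interval -2.20 to -0.22, edgeR adjusted p = 0.999, unadjusted p = 0.0186), and the exact two-sided permutation p was 0.114, where 0.0286 is the smallest possible. Within batches Ptprb was lower in 4 of 4 (exact permutation p = 0.125, the smallest the batches allow).

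Adgrl4, the adhesion receptor, stood at 205, 486, 579 and 860 CPM in saline and at 49.3, 118, 358 and 420 CPM in Malat1 ASO. Again 2 of 4 Malat1 ASO animals lay below all saline animals, resting on 6 and 8 UMIs. Its log2 change was -1.21 (SE 0.52, 95% interval -2.28 to -0.14, edgeR adjusted p = 0.999). Over all animals the exact two-sided permutation p was 0.143, where 0.0286 is the smallest possible. Adgrl4 was lower in 4 of 4 batches (within-batch exact permutation p = 0.125, the smallest possible).

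Bsg, the basigin gene, stood at 643, 2876, 2502 and 1825 CPM in saline and at 222, 147, 1731 and 1277 CPM in Malat1 ASO. The spread within Malat1 ASO, from 147 to 1731 CPM, was wider than the difference of the group means (1962 and 844 CPM). Its log2 change was -1.23 (SE 0.59, 95% interval -2.45 to -0.0021, edgeR adjusted p = 0.999). Over all animals the exact two-sided permutation p was 0.171, where 0.0286 is the smallest possible. Bsg was lower in 4 of 4 batches (within-batch exact permutation p = 0.125, the smallest possible).

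For Slco1a4 the saline animals had 269, 793, 1530 and 1301 CPM and the Malat1 ASO animals 148, 294, 813 and 807 CPM, a log2 change of -0.94 (SE 0.52, 95% interval -2.02 to 0.14). Cldn5 had a log2 change of -1.01 (SE 0.68), Abcb1a of -0.71 (SE 0.50), Slc2a1 of -0.68 (SE 0.59), Flt1 of -0.50 (SE 0.46) and Mecom of -0.23 (SE 0.53). All 6 of these intervals included 0. With the filter on low counts removed, edgeR called 12 of 18668 genes for Malat1 ASO against saline (0.0643%). Among them were Bsg (log2 change -1.30, SE 0.25, adjusted p = 0.0015) and Adgrl4 (-1.29, SE 0.29, adjusted p = 0.0254). Both changes were close to those of the main fit, and the SEs were smaller than there. Over the 29 settings tried, the lowest adjusted p was 0.0811 for Ptprb and 0.0845 for Slco1a4.

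Summed markers are given beside these values, and their ranges overlapped between saline and Malat1 ASO for the endothelial and fibroblast lists. The 15 endothelial markers, 6 of them members, summed to 1929 to 7532 CPM in saline (median 6181) and to 1356 to 5495 CPM in Malat1 ASO (median 3282). The 12 fibroblast markers summed to 3818 to 5618 CPM in saline (median 4806) and 4503 to 6782 CPM in Malat1 ASO (median 6342), and the 12 mural ones to medians of 4452 and 4399 CPM. The share of nuclei with 4 or more members was 18.0% of 344 for saline, 13.04% of 276 for Malat1 ASO, 14.6% of 397 for anti-TfR:Malat1 and 16.7% of 209 for OTV:Malat1. The part of these markers in the member levels was not tested.

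The carriers gave smaller differences. In anti-TfR:Malat1 6 of the 9 members were below saline and 3 above, from -0.26 for Slc2a1 to 0.32 for Mecom, with a median log2 change of -0.11 (all genes 0.00424). In OTV:Malat1 all 9 were below saline, from -0.68 for Bsg to -0.03 for Mecom, with a median of -0.33 (all genes -0.00526). Against anti-TfR:Malat1, the 9 members in OTV:Malat1 ranged from -0.49 for Abcb1a to -0.07 for Ptprb, with a median of -0.24 (all genes -0.0125). Without the 3 animals of batch 1 the median was -0.66 for OTV:Malat1 against saline and -0.43 against anti-TfR:Malat1, and with the batch as a block -0.62 and -0.48, with 0 genes of any kind called in these comparisons. The -0.94 of Malat1 ASO includes batch 1 and has no block, so it is not a like value for those medians. SEs of single members in the main comparisons of the carriers ran from 0.40 to 0.70. Within batches, on log2(CPM + 1), the differences from saline rest on 3 batches for OTV:Malat1 and on 4, batch 1 included, for Malat1 ASO. With that limit, OTV:Malat1 differed more than Malat1 ASO for Flt1 (-0.73 and -0.49) and Mfsd2a (-1.16 and -0.19). Slc2a1 (-0.92 and -0.90), Mecom (-0.27 and -0.26) and Abcb1a (-0.65 and -0.66) were close to equal. OTV:Malat1 differed less for the other members, such as Bsg (-1.03 and -1.715) and Slco1a4 (-0.72 and -0.97). Both were lower in OTV:Malat1 than in saline in 3 of 3 batches (exact permutation p = 0.25, the smallest possible).

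Flt1 stood at 491, 1329, 1375 and 1668 CPM in saline, from 323 to 2624 CPM (median 868) in anti-TfR:Malat1, and at 968, 1257 and 544 CPM in OTV:Malat1. Cldn5 stood at 40.9, 486, 455 and 409 CPM in saline, from 96.5 to 790 CPM (median 301) in anti-TfR:Malat1, and at 157, 475 and 193 CPM in OTV:Malat1. For both genes 1 saline animal, of batch 1, was far below the other 3. The OTV:Malat1 animals lay within the saline range, but for both genes that rested on this animal. For Flt1 all 3 lay below the other 3 saline animals, and for Cldn5 those at 157 and 193 CPM did. Within batches the OTV:Malat1 difference from saline on log2(CPM + 1) was -0.73 for Flt1 (lower in 3 of 3, exact permutation p = 0.25, the smallest possible; -0.34 over all animals). For Cldn5 it was -0.88 (lower in 2 of 3, exact permutation p = 0.50; -0.025 over all animals). Animals of anti-TfR:Malat1 reached above the saline range for both genes and, for Flt1, also below it. The intervals of the log2 change against saline were -0.97 to 0.72 for Flt1 and -1.14 to 1.23 for Cldn5 in anti-TfR:Malat1, and -1.38 to 0.65 and -1.71 to 1.18 in OTV:Malat1.

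Slc2a1 stood at 129, 417, 352 and 472 CPM in saline, at 92.2 to 731 CPM (median 188) in anti-TfR:Malat1 and at 138, 465 and 158 CPM in OTV:Malat1. Abcb1a stood at 105, 308, 217 and 472 CPM in saline, 83.6 to 577 CPM (median 267) in anti-TfR:Malat1 and 221, 232 and 158 CPM in OTV:Malat1. All groups overlapped for both genes. Within batches the OTV:Malat1 difference from saline on log2(CPM + 1) was -0.92 for Slc2a1 (lower in 2 of 3, exact permutation p = 0.50; -0.50 over all animals). For Abcb1a it was -0.65 (lower in 2 of 3, exact permutation p = 0.50; -0.26 over all animals). Mecom stood at 117, 238, 486 and 671 CPM in saline, 161 to 903 CPM (median 477) in anti-TfR:Malat1 and 387, 380 and 298 CPM in OTV:Malat1. Its group mean was highest in anti-TfR:Malat1, at 473 CPM (saline 378, Malat1 ASO 334, OTV:Malat1 355 CPM), a difference within the SD of 286 CPM. Its sign against saline turned under several settings.

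Mfsd2a, too low for the fit, had 53 UMIs, of which 14 came from saline, 12 from Malat1 ASO, 22 from anti-TfR:Malat1 and 5 from OTV:Malat1 animals. Its levels were 11.7, 49.6, 31.0 and 42.0 CPM in saline, 8.22, 14.7, 52.5 and 67.2 CPM in Malat1 ASO, 12.4 to 116 CPM (median 36.4) in anti-TfR:Malat1, and 9.22, 31.7 and 17.5 CPM in OTV:Malat1. The 3 OTV:Malat1 animals lay below the saline median of 36.5 CPM but overlapped the saline animals, with a difference of -0.74 on log2(CPM + 1) against saline (exact two-sided permutation p = 0.343, n = 3 and 4, smallest possible 0.0571) and of -1.16 within batches (exact p = 0.500).

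**Figure D3:**
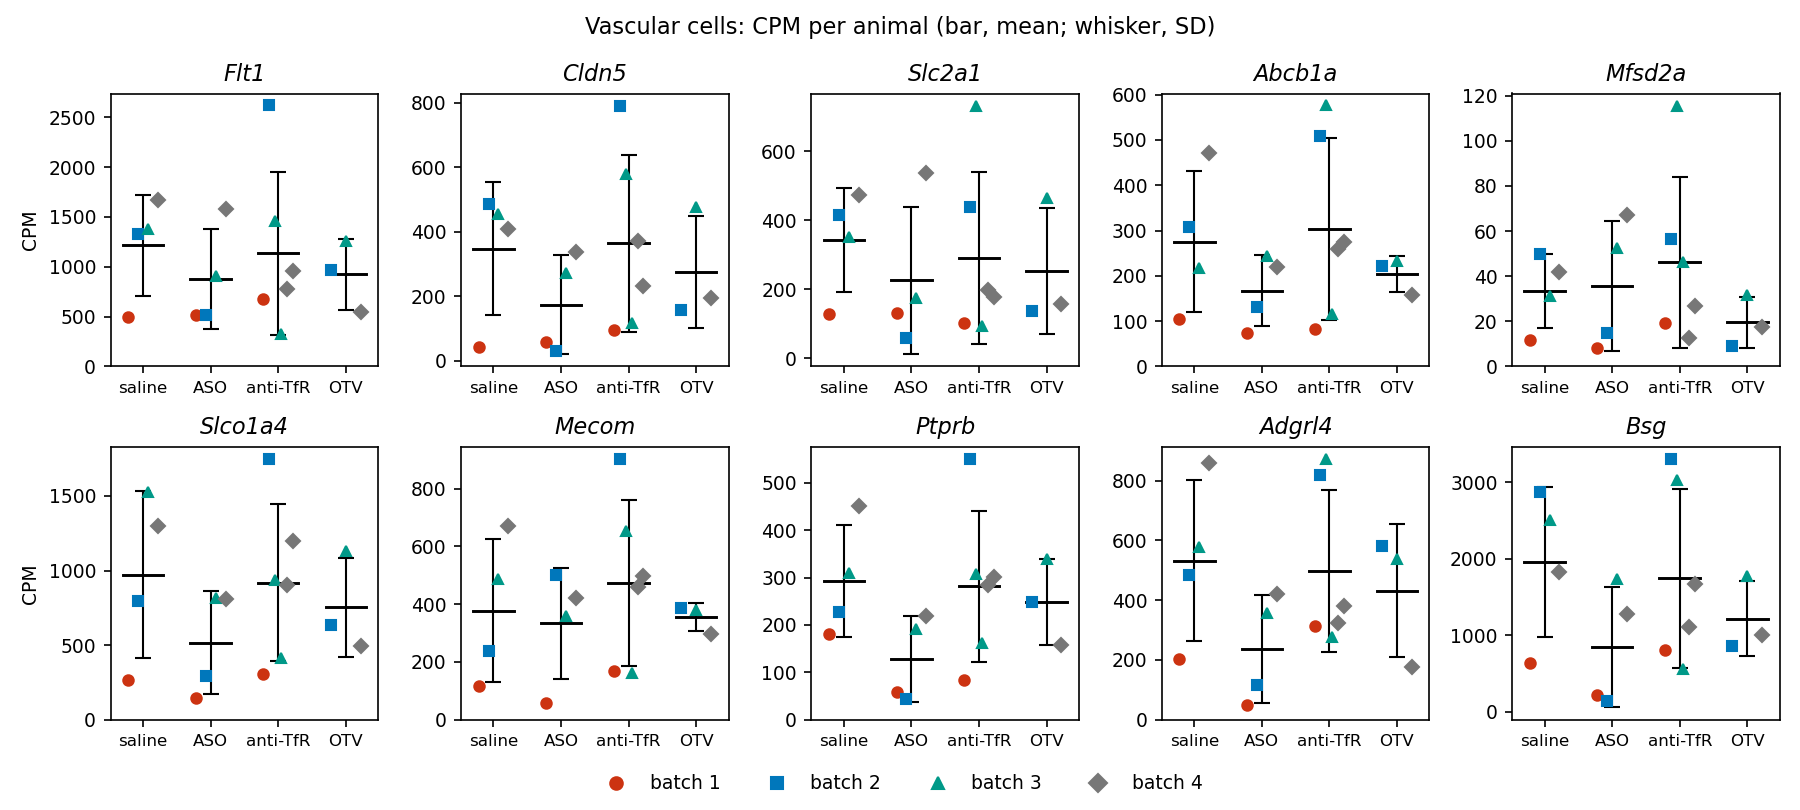
CPM of each gene per animal in Vascular cells, by group, with the mean (bar), the SD (whisker) and the authors' batch (marker). Batch 1 animals lie low for every gene, and Bsg in 2 Malat1 ASO animals (222 and 147 CPM) is below all 4 saline animals.

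Splitting Vascular cells by Flt1 gives the share of nuclei with the gene and, apart from it, the levels of the other members where it was present. The share of Vascular cells positive for Flt1 was 18.5%, 24.6%, 30.4% and 30.9% in the saline animals, 12.8%, 15.3%, 19.2% and 34.0% in Malat1 ASO, 11.9% to 30.0% (median 18.7%) in anti-TfR:Malat1, and 16.4%, 21.95% and 30.6% in OTV:Malat1. Each group overlapped with saline. Means were 26.1% ± 5.81, 20.3% ± 9.48, 19.5% ± 6.67 and 23.0% ± 7.15 (SD). Against saline the difference was -5.78 percentage points for Malat1 ASO (exact two-sided permutation p = 0.343, adjusted 0.588), -6.60 for anti-TfR:Malat1 (p = 0.143, adjusted 0.381) and -3.13 for OTV:Malat1 (p = 0.514, adjusted 0.588), which was -5.66 without batch 1 (exact p = 0.300). These p-values were adjusted over the 8 exact tests of this share and of Malat1. For anti-TfR:Malat1 the share was lower in 4 of 4 batches (within-batch difference -7.24 points, exact permutation p = 0.0556, the smallest the batches allow). In nuclei of 1000 or more UMIs the difference was only -0.718 points for anti-TfR:Malat1 (exact permutation p = 0.905) and -1.50 for OTV:Malat1 (exact p = 0.914), while it was -9.64 for Malat1 ASO (exact p = 0.114). These include shares over only 17 nuclei in anti-TfR:Malat1 replicate 4 and 13 in OTV:Malat1 replicate 3. With every nucleus thinned to 500 UMIs, the differences were -6.67 for anti-TfR:Malat1 (exact p = 0.143), -4.51 for OTV:Malat1 (exact p = 0.343) and -3.97 points for Malat1 ASO (exact p = 0.457). For anti-TfR:Malat1 it was -6.57 points without the authors' doublets (exact p = 0.171) and -4.39 with 2 or more UMIs of Flt1 (exact p = 0.286).

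In the Flt1-positive nuclei 675 genes were tested, with 8 of the 9 other members, and Mfsd2a fell below the filter. Flt1 was among the 675 genes, but since it chose these nuclei its own change is not given. No gene and no member passed the threshold (0% called in each of the 4 comparisons, edgeR), and 10, 14, 23 and 21 genes were at an unadjusted p under 0.05. The members' median log2 change was -0.50 in Malat1 ASO (7 of 8 lower, all genes -0.0283), 0.02 in anti-TfR:Malat1 (3 lower, 5 higher), -0.16 in OTV:Malat1 (7 lower), and -0.22 between the carriers (OTV:Malat1 minus anti-TfR:Malat1, 7 lower). Without batch 1 the last 2 medians were -0.41 and -0.30.

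For Malat1 ASO the median of -0.50 lay nearer 0 than that in all Vascular cells, a difference that was not tested. Ptprb stood at 1096, 737, 967 and 1169 CPM in saline and 565, 333, 884 and 771 CPM in Malat1 ASO in the Flt1-positive nuclei. Bsg stood at 3145, 8747, 7447 and 4676 CPM in saline and at 1291, 444, 7432 and 4211 CPM in Malat1 ASO, a log2 change of -0.84. Mecom was the exception of the 8, at 707, 737, 1515 and 1740 CPM in saline and 484, 3772, 1647 and 1483 CPM in Malat1 ASO, a log2 change of 0.53. The 3772 CPM of Mecom, the 444 CPM of Bsg and the 333 CPM of Ptprb came from the same animal, which had 9 such nuclei and 9014 UMIs.

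Across the carriers, Slco1a4 stood at 1378, 2499, 4707 and 3344 CPM in saline, 1977 to 4707 CPM in anti-TfR:Malat1 and 2616, 3166 and 1963 CPM in OTV:Malat1. Cldn5 stood at 247, 1570, 1418 and 1060 CPM in saline, 638 to 1950 CPM in anti-TfR:Malat1 and 664, 1278 and 800 CPM in OTV:Malat1. Abcb1a, the efflux pump, had the largest difference between the carriers among the 8 fitted members, with 425 to 1345 CPM in anti-TfR:Malat1 and 547, 639 and 436 CPM in OTV:Malat1, a log2 change of -0.64 (edgeR adjusted p = 0.997). The groups overlapped for all 3 genes. Within batches Abcb1a was lower in OTV:Malat1 in 3 of 3, with a difference of -1.04 on log2(CPM + 1) (exact permutation p = 0.111, the smallest possible), and Mecom and Ptprb were also lower in 3 of 3. Bsg stood at 3844 to 7395 CPM in anti-TfR:Malat1 and 3279, 4657 and 3636 CPM in OTV:Malat1. Its OTV:Malat1 animals were lower in 3 of 3 batches and 2 of 3 lay below all anti-TfR:Malat1 animals (-0.51 on log2(CPM + 1), exact two-sided permutation p = 0.0476, not adjusted), while edgeR gave -0.34 (adjusted p = 0.997). Within batches the Bsg difference was -0.62, with an exact permutation p of 0.222, where 0.111 is the smallest possible. Mfsd2a, outside the fit, had 0, 3 and 0 UMIs in the OTV:Malat1 animals (91.3 CPM in the second) and 1 to 9 UMIs in each anti-TfR:Malat1 animal (67.2 to 427 CPM). Both animals at 0 lay below all anti-TfR:Malat1 animals (exact two-sided permutation p = 0.0476, not adjusted, smallest possible 0.0238), but 0 UMIs in 18 and 9 nuclei is a reading at the floor, so no fold is given. The Bsg and Mfsd2a values are 2 of 9 such comparisons of members between the carriers in these nuclei.

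**Figure D4:**
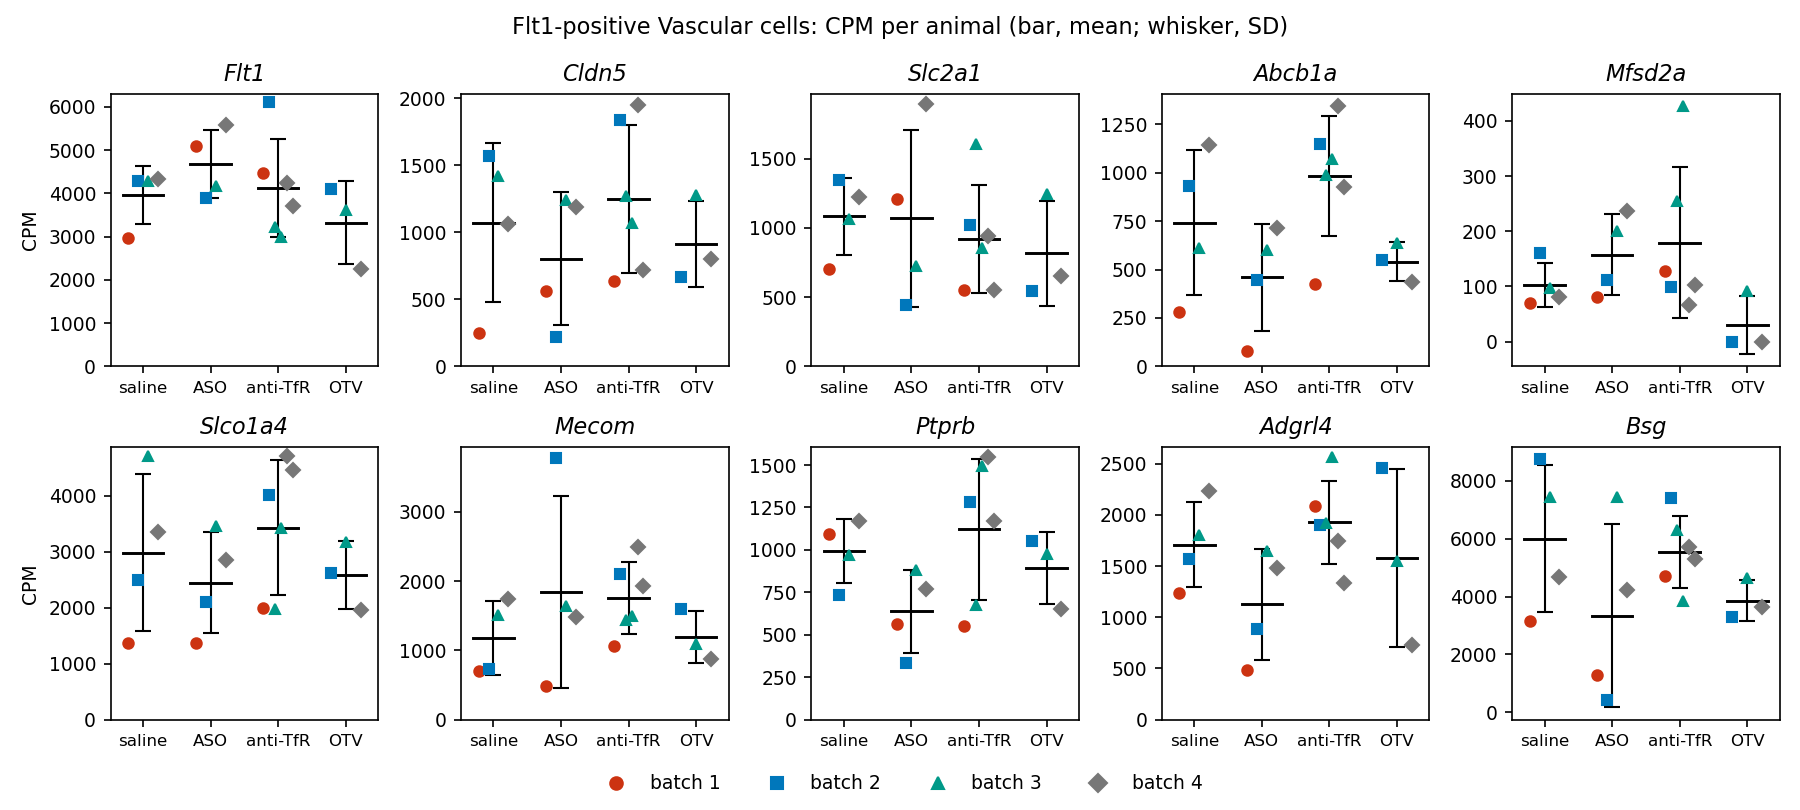
CPM per animal in the Flt1-positive Vascular cells, by group, with the mean (bar), SD (whisker) and batch (marker). Groups overlap for every barrier gene, and Bsg in Malat1 ASO runs from 444 to 7432 CPM.

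Malat1 checks the labels in these nuclei. It stood at 98100, 83780, 84720 and 65220 CPM in saline, 100400, 73110, 72710 and 54390 CPM in Malat1 ASO, 37890 to 71730 CPM in anti-TfR:Malat1, and 53330, 63950 and 45010 CPM in OTV:Malat1. Every OTV:Malat1 animal and 5 of 6 anti-TfR:Malat1 animals lay below all saline animals. On log2(CPM + 1) the difference from saline was -0.16 for Malat1 ASO (exact two-sided permutation p = 0.457, adjusted 0.588), -0.73 for anti-TfR:Malat1 (p = 0.0190, adjusted 0.152; lower in 4 of 4 batches) and -0.62 for OTV:Malat1 (p = 0.0571, the smallest possible, adjusted 0.229; lower in 3 of 3 batches). Without the nuclei that the authors called doublets, the OTV:Malat1 difference was -0.40 (exact permutation p = 0.114) and the groups overlapped, while anti-TfR:Malat1 differed by -0.79 (exact p = 0.0381). With 2 or more UMIs of Flt1, anti-TfR:Malat1 differed by -1.045 (n = 5, exact p = 0.0159) and OTV:Malat1 by -0.87 (exact p = 0.0571). Neither group overlapped with saline there, and both p-values, not adjusted, were the smallest possible. Malat1 ASO differed by -0.34 there (exact p = 0.257). Over all Flt1-positive nuclei, OTV:Malat1 minus anti-TfR:Malat1 was 0.12, with overlapping groups (p = 0.595, adjusted 0.595, exact permutation). Within batches OTV:Malat1 was the higher of the carriers in 3 of 3, by 0.27 (exact permutation p = 0.111, the smallest the batches allow). Across all genes edgeR gave -0.87 for anti-TfR:Malat1 (SE 0.24, adjusted p = 0.998), and -0.84 with an adjusted p of 6.46e-04 when the authors' batch was a block.

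**Figure D5:**
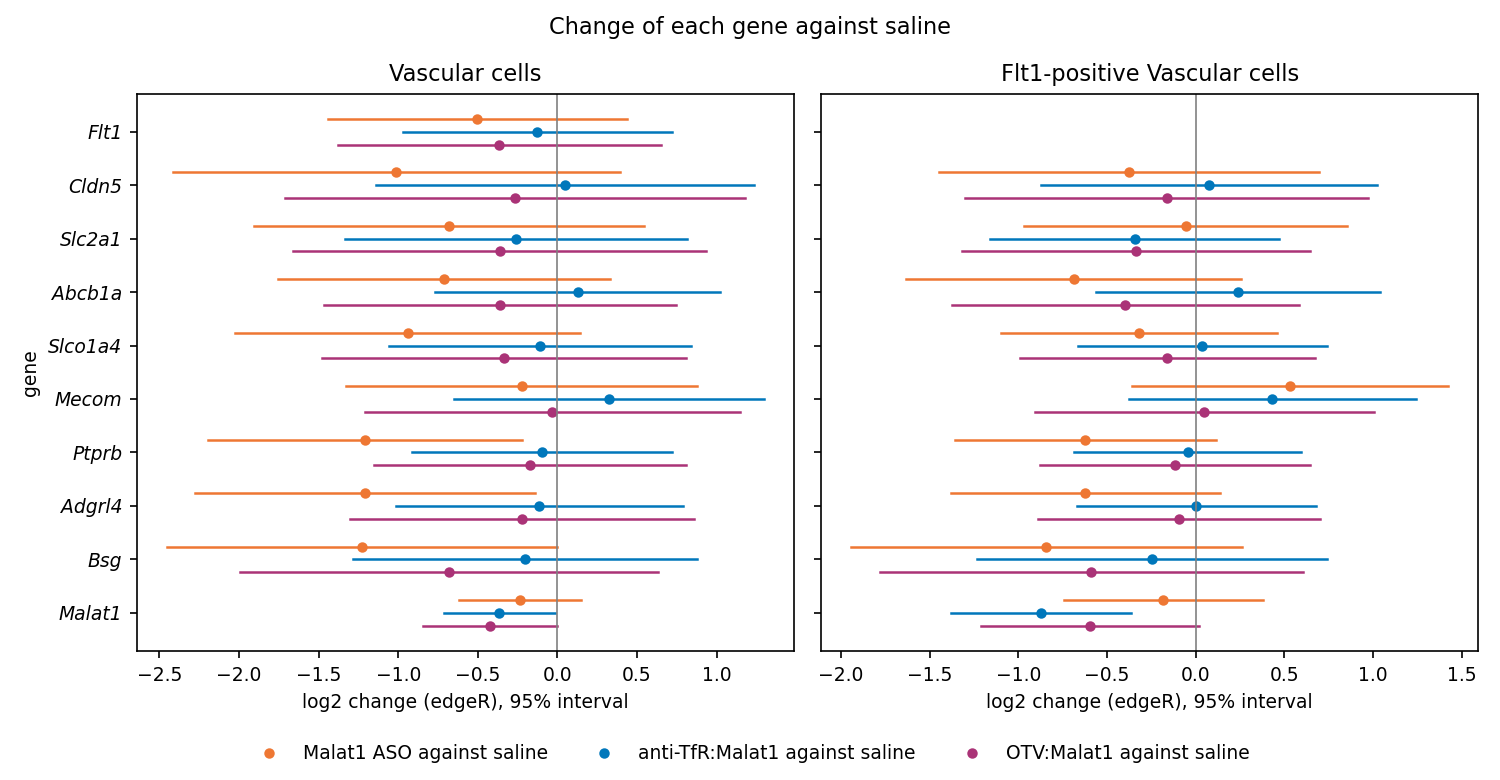
Log2 change of each gene against saline with its 95% interval (edgeR), for the 3 treated groups, in Vascular cells and in Flt1-positive Vascular cells. The Malat1 ASO points of the barrier genes lie left of 0 in Vascular cells (median -0.94), and no barrier gene passed the adjusted threshold.

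In the other labels no member passed the threshold in any comparison, and few genes did at all. Over all nuclei (21375 genes, 10 members) 0% were called, as in Neurons (20906 genes, 10 members) and Perivascular macrophages (1418 genes, 1 member). Astrocytes (8547 genes, 3 members) had 1 gene called (0.0117%) in OTV:Malat1 against saline and 1 (0.0117%) against anti-TfR:Malat1, Oligodendrocytes (14419 genes, 5 members) 3 (0.0208%) and 1 (0.00694%), and Microglia (9104 genes, 2 members) 1 (0.011%) and 0. Malat1 was among the called genes in each, and the other 2 were Saa3 and Slc35f2 in Oligodendrocytes. Of the members, Mecom in Neurons (log2 change -0.77 for Malat1 ASO against saline, edgeR adjusted p = 1.00) and Bsg in Perivascular macrophages (1.54 for OTV:Malat1, edgeR adjusted p = 0.999) had the lowest unadjusted values. Glia had too few nuclei per animal to be fitted.

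Other genes of the barrier came from 5 lists chosen by function. No gene of any list passed the threshold (0 called in either direction in all comparisons, edgeR). Of 16 tight junction genes 8 were tested in Vascular cells, with a median log2 change of -0.31 for Malat1 ASO, -0.14 for anti-TfR:Malat1 and -0.21 for OTV:Malat1. In Malat1 ASO 6 of the 8 were below saline, the lowest at -1.38. Of the 8, 2 were at an unadjusted p under 0.05 (edgeR), as were 4.29% of all genes. Tjp1, a scaffold protein of the junctions, stood at 1570 CPM in Flt1-positive and 542 CPM in Flt1-negative nuclei, while Pard3, a polarity protein, stood at 601 and 612 CPM. The Pard3 level was close to equal with and without Flt1, and its log2 change for Malat1 ASO was -0.03 (SE 0.19). Those of Tjp1, Magi1 and Cgnl1, of the same list, were -0.26 (SE 0.19), -0.37 (SE 0.28) and 0.08 (SE 0.21).

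Of 22 transport genes 11 were tested, all 11 below saline in Malat1 ASO (median -0.50) and in OTV:Malat1 (median -0.26), and 8 of 11 in anti-TfR:Malat1 (median -0.09). Abcg2, a drug efflux pump, stood at 1023 CPM with Flt1 and 160 CPM without. Slco1c1, a thyroid hormone transporter, stood at 1265 and 9.77 CPM, and had a log2 change of -0.67 in Malat1 ASO (SE 0.57). Slc6a6, the taurine transporter, stood at 881 and 69.2 CPM.

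Of 26 endothelial identity genes 13 were tested, all below saline in Malat1 ASO (median -0.59), 6 of 13 in anti-TfR:Malat1 (median 0.03) and 10 of 13 in OTV:Malat1 (median -0.35). Ly6c1 and Ly6a, surface proteins of brain vessels, stood at 1757 and 1265 CPM with Flt1 and at 9.77 and 6.51 CPM without. Lef1, a transcription factor of the Wnt pathway that induces the barrier, stood at 1071 and 93.6 CPM, and Fli1, an ETS factor, at 629 and 104 CPM. Their log2 changes in Malat1 ASO ran from -0.59 for Lef1 and Fli1 to -1.30 for Ly6a, each with an interval that included 0. In the Flt1-positive nuclei the Malat1 ASO medians were -0.07 for transport (6 of 8 lower) and -0.09 for endothelial identity (11 of 13 lower), against -0.03 over all genes, and -0.43 for tight junctions (4 of 6 lower). There Slco1c1 had a log2 change of -0.02 (SE 0.43) and Lef1 of -0.04 (SE 0.32). For OTV:Malat1 against saline the endothelial identity median was -0.52 there (9 of 13 lower).

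Of 28 genes of VEGF, angiopoietin and Wnt signalling 9 were tested, 8 of them below saline in Malat1 ASO (median -0.30), and medians were 0.06 and -0.15 in the carriers. Apcdd1, a Wnt inhibitor, stood at 307 CPM with Flt1 and 156 CPM without, and Nrp1, a VEGF co-receptor, at 215 and 230 CPM. Of the caveolae and leukocyte adhesion list 12 of 13 genes were in the table and 2 were tested. Cavin2, a coat protein of caveolae, had a log2 change of -2.28 in Malat1 ASO (SE 0.81, edgeR adjusted p = 0.999), and Vcam1, an adhesion protein, of -0.98 (SE 0.56).

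Some readings carry limits of the counting. How reads from introns were treated and whether strand was used was not stated in the sources used here, so reads from a gene and from genes that overlap it cannot be told apart. This touches Mecom (chromosome 3, 29951296 to 30509759, GRCm38.p6), which overlaps Mecomos, Gm52621 and Gm10258, and Abcb1a (chromosome 5, 8567091 to 8748575), which overlaps Rundc3b. Slc2a1, Flt1 and Ptprb also overlap predicted genes. Abcb1a has the close relative Abcb1b and Slco1a4 other Slco1a genes, whose reads could be shared, and the counts do not separate the soluble and membrane forms of Flt1.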

How the data were processed

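Droplet-based single-nucleus RNA was measured in 17 mice, 1 library each, from nuclei stained with DAPI and sorted, per the labels' protocols. The authors deposited whole-number UMI counts, made per the submitters' processing notes with Cell Ranger 6.0.1, Seurat 4 and mm10. They also deposited a cell label, cluster, batch and doublet call per nucleus (unit other), and 12 metadata columns were not used.

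UMIs were summed per animal over each label and over Vascular cells with a UMI of Flt1, for animals with 20 or more nuclei (5 for Flt1-positive), and divided by the total for CPM. edgeR 4.0.16 (filterByExpr, TMM, glmQLFit, glmQLFTest, R 4.3.3) fitted all 17 animals together, on 43368 to 171058 UMIs per animal in Vascular cells. Its p-values received Benjamini-Hochberg adjustment across every gene in a fit (threshold 0.05). DESeq2 1.42.0 was an alternative. Single values used exact two-sided permutation over animals, counting the smaller tail for both sides, on log2(CPM + 1). Each animal was 1 replicate, so p-values measure the spread between these animals, and intervals on UMIs or shares cover counting error only. The fits were tested on simulated data.

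The members, lists, tests and alternatives were chosen with earlier results of these data known. Named genes were all members, up to 4 per list by level in Vascular cells, the 5 genes closest to the members, and the 5 with the highest ratio between Flt1-positive and Flt1-negative nuclei.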

Additional observations from a re-analysis of the deposited data

Results flagged for a closer look

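Among 66 groups of 4 to 6 animals examined for a value far from the rest, 1 stood out, where chance gives about 1 in 20. The Flt1 level in Flt1-positive Vascular cells was 2969 CPM in saline replicate 1, against 4288 to 4323 CPM in the other 3 saline animals, a gap of 0.974 of the group's range. This animal belongs to batch 1, and Flt1 chose the nuclei.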

How the results depend on the processing

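Of the members, only Bsg and Adgrl4 passed the threshold in any setting, both for Malat1 ASO against saline in Vascular cells with no filter on low counts (2 members). There edgeR called 12 genes for Malat1 ASO, 3 for anti-TfR:Malat1, 19 for OTV:Malat1 and 8 for OTV:Malat1 against anti-TfR:Malat1, and in Flt1-positive nuclei 3, 4, 2 and 10, where the main counts were 0; the cause was not tested. Animals of different groups with the same number in their sample titles had correlations of -0.17 to 0.345 (21 pairs, 8 over 0.1). The pairs of number 1 within batch 1 had 0.266, 0.345 and 0.181. Those with OTV:Malat1 replicate 1, of batch 2, had 0.0298, -0.023 and 0.115. The numbers equal the authors' batch in saline, in Malat1 ASO and for anti-TfR:Malat1 1 to 3, but not for the other animals. With them as a replicate block, the counts were 1 for OTV:Malat1 against saline and 3 against anti-TfR:Malat1 in Vascular cells, 1 for OTV:Malat1 against anti-TfR:Malat1 in Flt1-positive nuclei, 1 in Oligodendrocytes (3 without the block) and 1 in Perivascular macrophages for OTV:Malat1 against saline, none of them members. With the authors' batch as a block, 1 gene was called for anti-TfR:Malat1 against saline in Flt1-positive nuclei and 1 in Astrocytes, 1 in Microglia for OTV:Malat1 against anti-TfR:Malat1 and 1 in Perivascular macrophages for OTV:Malat1 against saline. DESeq2 over all nuclei called 1 gene for OTV:Malat1 against saline, and 10 or more nuclei per animal gave 2 in Flt1-positive nuclei for OTV:Malat1 against anti-TfR:Malat1. Leaving out each animal gave 0 to 3 genes for OTV:Malat1 against saline in Vascular cells (3 without OTV:Malat1 replicate 2) and 0 to 2 for OTV:Malat1 against anti-TfR:Malat1 in Flt1-positive nuclei (2 without anti-TfR:Malat1 replicate 2).

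Signs turned as follows, all without a call. In Vascular cells, Slc2a1 for anti-TfR:Malat1 became 0.022 with the replicate block and 0.035 in nuclei of 1000 or more UMIs. Mecom for OTV:Malat1 became 0.33 with the replicate block and 0.030 in cluster 14, and Ptprb between the carriers 0.19 with the replicate block. In Flt1-positive nuclei, Slc2a1 for Malat1 ASO became 0.13 with 2 or more UMIs of Flt1 and 0.20 with 10 or more nuclei. Mecom for OTV:Malat1 became -0.19 with the batch block, -0.10 with no filter and -0.075 without batch 1. Slc2a1 between the carriers became -0.045 with the batch block, -0.11 with the replicate block, -0.035 with no filter and -0.064 without batch 1. The Flt1-positive share between the carriers became -0.782 points in nuclei of 1000 or more UMIs. Leaving out each animal gave ranges across 0. They were -0.59 to 0.17 (Malat1 ASO), -0.038 to 0.75 (anti-TfR:Malat1) and -0.39 to 0.38 (OTV:Malat1) for Mecom in Vascular cells, and -0.37 to 0.20 for Ptprb between the carriers. In Flt1-positive nuclei they were -0.36 to 0.22 for Slc2a1 in Malat1 ASO, -0.52 to 0.34 for Slc2a1 between the carriers, -0.20 to 0.30 for Mecom in OTV:Malat1 and -0.42 to 0.036 for Malat1 in Malat1 ASO. The share ranged from -10.3 (without Malat1 ASO replicate 4) to -3.27 points (without Malat1 ASO replicate 1) for Malat1 ASO, from -9.135 (without saline replicate 1, exact p = 0.0476, not adjusted) to -5.01 for anti-TfR:Malat1, from -6.93 to 0.167 points (without OTV:Malat1 replicate 3) for OTV:Malat1 and from -0.327 (without OTV:Malat1 replicate 2) to 6.77 between the carriers, and Malat1 by the exact test from -0.013 to 0.24 between the carriers. Restricting to clusters where Vascular cells is the most common label could not be run, as no cluster met it, so cluster 14, with 1203 of the 1226 nuclei, was used instead. That and leaving out batch 1 were chosen after seeing the data. Depth is a limit of the Flt1-positive results, as their sums held 4683 to 36784 UMIs per animal.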

Other observations

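Tfrc, the mouse transferrin receptor and a transport gene known from brain vessels, was too low for the fit. Its 77 UMIs in Vascular cells lay mostly in the Flt1-positive nuclei (65 UMIs, 162 CPM), against 12 UMIs and 9.77 CPM without Flt1. In Vascular cells it stood at 11.7, 59.5, 31.0 and 31.5 CPM in saline, 16.4, 58.8, 43.7 and 84.0 CPM in Malat1 ASO, 0 to 115 CPM in anti-TfR:Malat1 and 36.9, 31.7 and 105 CPM in OTV:Malat1. All groups overlapped.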
